A study of Mus musculus with 18 samples.

Results

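Hox genes encode transcription factors with a shared DNA-binding segment, the homeodomain, and lie in 4 clusters named Hoxa, Hoxb, Hoxc and Hoxd. Genes at the same place in different clusters form a paralog group, numbered from 1 at the end active near the head to 13 at the end active towards the tail, limb tips and genitals. Skin fibroblasts are known to keep the Hox pattern of their position on the body into adult life, so the set of Hox genes read in a piece of skin is a record of where it lay. Hox genes are also read in hair follicle cells. The genes described here are protein-coding members of the 4 mouse clusters, and numbered 38 of the 41605 gene IDs listed for each library. They are not the full set, since 1 further Hoxc gene is not counted in any number given here. Members were taken by symbol and not by level, though the set was chosen with earlier results of these data known. Of the 38 members, 11 belonged to Hoxa, 10 to Hoxb, 8 to Hoxc and 9 to Hoxd.

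RNA sequencing of bulk skin from C57BL/6 mice, an inbred strain, aged 8-12 weeks, gave 18 libraries in 3 groups of 6. The groups were skin treated with detergent A, skin treated with detergent B, and skin treated with PBS (phosphate-buffered saline), the control. All 3 groups share the strain and the age, and no transgene or mutant allele is named in the labels. Dose, duration, body site and housing are absent from the labels, as is whether each library came from a separate animal, so that a p-value measures the spread between these libraries, which may be partly technical.

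Total counts ran from 17312623 to 29599018 per library. The tissue label was checked against keratinocyte markers, whose 10 genes summed to between 28180 and 55160 CPM (counts scaled to a common library total) in detergent A libraries, between 35310 and 52660 CPM in detergent B libraries and between 22580 and 39650 CPM in PBS libraries. The 12 skeletal muscle markers were also read in every library, with sums from 5281 CPM up. Hair shaft keratins, of which 12 of 13 listed genes were measured, varied most, with summed levels from 9.02 to 317 CPM in detergent A, from 6.53 to 205.5 CPM in detergent B and from 22.7 to 523 CPM in PBS libraries. One control library, PBS replicate 6, stood apart from its group, with a hair keratins score (mean log2 CPM of these genes, set to a PBS mean of 0) of -2.60, against -0.32 to 1.80 in the other 5 PBS libraries. Counts of genes called, cluster sums and the fold changes of Hoxb2, Hoxb6, Hoxd3, Hoxd4, Hoxa7 and Hoxd8 are given with and without it.

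The skin expressed the Hox clusters from paralog group 2 to paralog group 10, with few or no reads for the genes counted here at the tail end. Every gene of groups 2 to 10 passed the filter on low counts, among them all 19 of groups 4 to 9. None of the 8 genes counted here of groups 11 to 13 did. In all, 28 of 38 genes passed, 9 of Hoxa, 8 of Hoxb, 6 of Hoxc and 5 of Hoxd, and the mean level of the lowest of these was 1.22 CPM. The 10 that did not pass were Hoxa11, Hoxa13, Hoxb1, Hoxb13, Hoxc11, Hoxc12, Hoxd1, Hoxd11, Hoxd12 and Hoxd13, none of them above 0.642 CPM in any library. These 10 genes include those that pattern the forearm, the digits and the genitals. Hoxb13, Hoxd12 and Hoxd13 had no read in any library, which at 3 counts allows at most between 0.101 and 0.173 CPM depending on the depth of the library. The other 7 had from 4 reads in all, for Hoxa13, to 127 reads in all, for Hoxc11, over the 18 libraries.

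Levels of different genes were compared as CPM per kilobase of exon. Hoxa7, a gene of the thoracic region, had the highest level, with 20.9 ± 3.72 in detergent A, 22.7 ± 4.31 in detergent B and 23.4 ± 6.32 CPM per kilobase in PBS libraries (SD, n = 6 each). It was above the next gene, Hoxd8, in all 18 libraries. Hoxd8 followed with a mean of 8.45 ± 3.93 CPM per kilobase over all 18 libraries, Hoxb7 with 8.31 ± 1.75, Hoxa5, which acts in neck and lung development, with 7.90 ± 1.46, and Hoxb6 with 7.72 ± 2.98. From Hoxd8 down to Hoxb6, no gene stood above the next in the order by more than the larger SD of the pair. The highest gene of the Hoxc cluster was Hoxc8, which patterns thoracic vertebrae, at 5.86 ± 1.38 CPM per kilobase. Further down the order, Hoxa3 and Hoxa4, at 1.37 ± 0.333 and 0.971 ± 0.281 CPM per kilobase, and Hoxd10 and Hoxc11, at 0.674 ± 0.162 and 0.156 ± 0.0859, were the only other neighbours set apart by more than the larger SD of the pair.

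**Figure D1:**
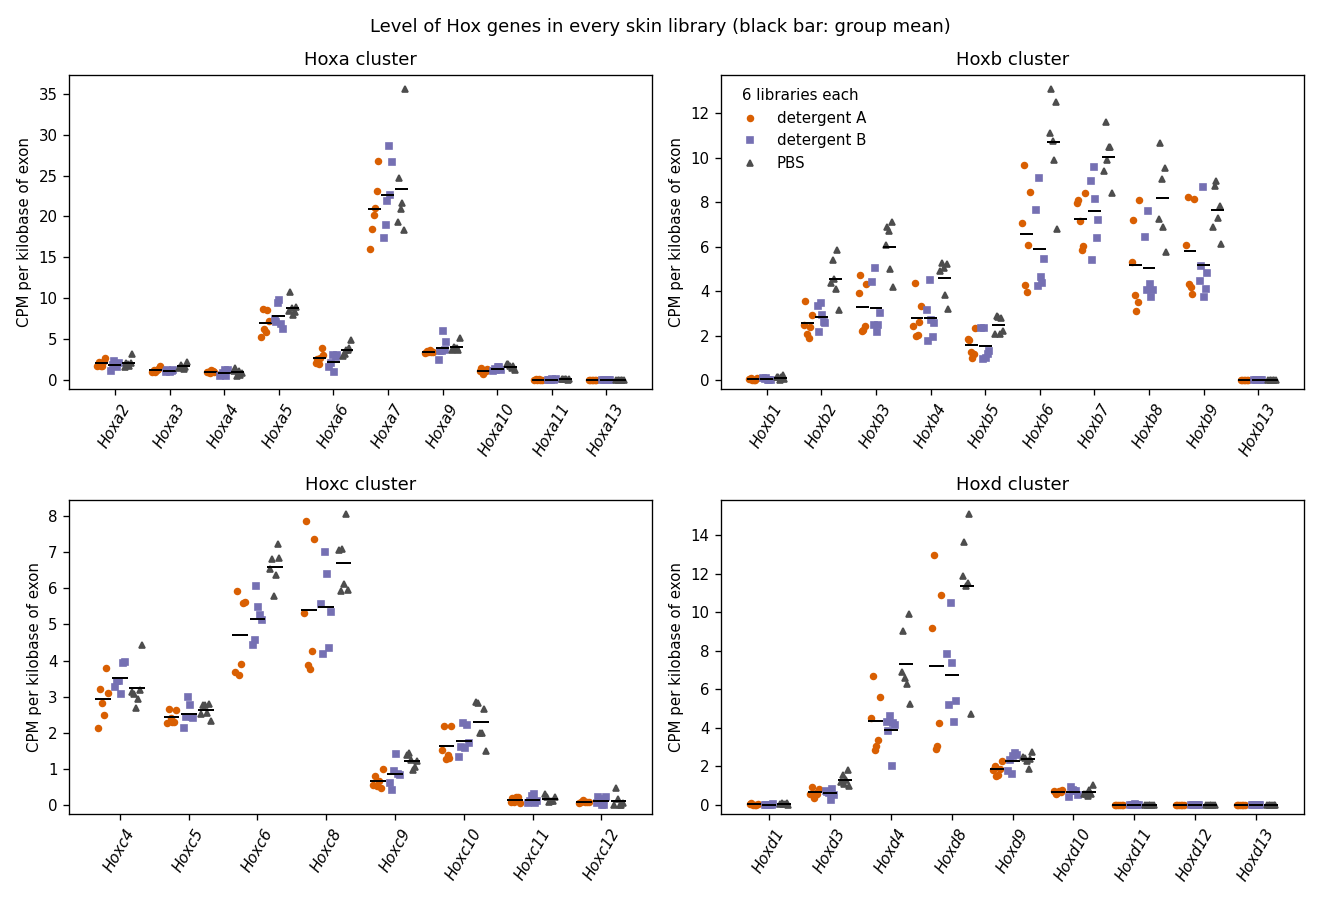
Level of each Hox gene described here in CPM per kilobase of exon (vertical axes, linear, each panel with its own range) in 6 libraries each of detergent A, detergent B and PBS, with genes of each cluster in the order of their paralog groups on the horizontal axis and a black bar at each group mean. Hoxa7 stands alone near 22.3 CPM per kilobase, and genes of groups 11 to 13 lie at or near 0.

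By paralog group, over the 18 libraries pooled, the sum over members was highest in group 7, at 30.6 ± 5.05 CPM per kilobase, followed by group 8 at 20.4 ± 7.29, group 6 at 16.1 ± 4.41 and group 9 at 13.1 ± 2.39. Sums then dropped to 3.99 ± 0.779 in group 10 and 0.245 ± 0.124 in group 11. On the head side, group 4 reached 12.8 ± 3.21, group 3 reached 6.43 ± 2.27 and group 2 reached 5.34 ± 1.26 CPM per kilobase. The order of groups 9 and 4 was not the same in all conditions, with group 9 at 11.8 in detergent A, 12.3 in detergent B and 15.3 CPM per kilobase in PBS libraries, against 11.1, 11.04 and 16.1 for group 4, gaps smaller than their SDs.

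The cluster with the largest share was not the same in all 3 groups, which is given as a description. Hoxa gave 38.6% of the summed level in detergent A, 39.3% in detergent B and 32.5% in PBS libraries. Hoxb gave 31.8% in detergent A, 30.4% in detergent B and 36.5% in PBS libraries, so that on average Hoxa was the larger of the pair in both detergent groups and Hoxb in PBS. Single libraries did not all follow their group. The Hoxb sum was above the Hoxa sum in detergent A replicates 1 and 2 and in detergent B replicates 1 and 3. In PBS replicate 6 the Hoxa sum was the larger, at 63.5 against 39.9 CPM per kilobase. Hoxc gave 16.5%, 17.6% and 15.5%, and Hoxd gave 13.1%, 12.8% and 15.5%, in detergent A, detergent B and PBS.

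These shares depend on gene models that overlap. With only the exonic length that no other gene shares, the Hoxd sum was 24.6 CPM per kilobase in place of 17.4. Sums of the other clusters on this length are not given here, though they too hold genes with shared bases. Hoxd3 shared 62.8% of its exonic bases with other genes, Hoxb3 52.9%, Hoxd4 52.3%, Hoxb2 27.3% and Hoxa3 27.1%. Hoxa7, the gene with the highest level, shared 20.4%. Hoxd3 and Hoxd4 overlap each other and the antisense gene Hoxd3os1, and Hoxb2 and Hoxb3 both overlap Hoxb3os. No source used here gives the strand setting of the counting, so the reads of such a gene and its partner cannot be told apart.

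Cluster sums are given as values, with no test. The Hoxb sum was 35.1 ± 10.2 in detergent A, 34.2 ± 9.51 in detergent B and 54.3 ± 8.99 CPM per kilobase in PBS libraries (SD, n = 6 each). The Hoxd sum was 14.8 ± 6.32 in detergent A, 14.2 ± 2.1 in detergent B and 23.1 ± 5.2 CPM per kilobase in PBS. The Hoxc sum was 18.02 ± 3.66 in detergent A, 19.6 ± 2.28 in detergent B and 23.0 ± 1.46 CPM per kilobase in PBS. The Hoxa sum was 41.3 ± 5.72 in detergent A, 43.6 ± 6.92 in detergent B and 47.9 ± 8.47 CPM per kilobase in PBS. Without PBS replicate 6, the PBS sums were 57.2 ± 6.24 for Hoxb, 24.8 ± 3.62 for Hoxd, 23.0 ± 1.62 for Hoxc and 44.7 ± 3.99 CPM per kilobase for Hoxa (SD, n = 5). All Hox reads together made up 0.0235% to 0.0367% of counts in detergent A, 0.0255% to 0.0361% in detergent B and 0.0363% to 0.0443% in PBS libraries. These sums and shares are scaled by total counts, which puts the median log2 fold change of all genes at -0.11 with detergent A and -0.14 with detergent B. The part of this general shift in the sums was not tested. In bulk tissue, fewer cells of a type that reads these genes and less RNA per cell cannot be told apart.

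In the comparisons against PBS, Hoxb2, Hoxd3 and Hoxd4 passed the test, and each was lower with detergent. Hoxb2 patterns the hindbrain, and Hoxd3 and Hoxd4 pattern the neck vertebrae in mouse embryos. The homeobox of Hoxb2, the gene lower with both detergents, is shown as the 180 coding bases of the homeodomain, 5′ to 3′ on the coding strand, as the GENCODE M21 transcript gives it, since this is the segment by which reads of one Hox gene could be taken for another's. Capitals mark 18 bases, which code for the core of the third helix, the part that enters the major groove of DNA.
Hoxb2: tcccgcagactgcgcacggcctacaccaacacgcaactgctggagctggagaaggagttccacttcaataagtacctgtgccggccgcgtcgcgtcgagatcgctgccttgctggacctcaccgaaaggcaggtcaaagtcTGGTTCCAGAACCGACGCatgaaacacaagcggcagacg
On GRCm38 it lies on the plus strand at chr11:96352985-96353164, in exon 2 of 2. Homeoboxes were found in all 38 members. Members of one paralog group shared a median of 80.6% of bases in 39 pairs, and members of different groups a median of 61.1%. The closest pair was Hoxa3 and Hoxb3, at 93.9%. Hoxd3 and Hoxb3 shared 92.8% with a longest identical run of 47 bases, and Hoxd4 and Hoxa4 shared 82.8%. The closest to Hoxb2 was Hoxd3, at 77.8% with a longest run of 28 bases. The longest identical run among all 703 pairs was 52 bases, between Hoxa6 and Hoxb4. How reads with more than 1 match were handled is not given in the sources used.

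With detergent A, Hoxb2 was the only member past the threshold of an adjusted p of 0.05, where 0.137% of the 16836 genes tested were called lower, 0.0535% higher and 0.19% in either direction. Hoxb2 measured 6.64 CPM at the lowest, 8.45 at the median and 12.5 CPM at the highest in detergent A libraries, against 11.03, 15.5 and 20.4 CPM in PBS libraries. All 6 detergent A libraries lay below the PBS mean, and the groups overlapped only because PBS replicate 6, at 11.03 CPM, fell below the other PBS libraries, which were at 14.3 CPM or more. The log2 fold change was -0.74 ± 0.14 (SE), with an edgeR adjusted p of 0.0392 from quasi-likelihood tests over all genes. The call was lost without any one of PBS replicates 1 to 5, detergent A replicates 1, 3, 4 and 5 or detergent B replicates 5 and 6, when 0 members were called. It was held without PBS replicate 6, with 4 members called (Hoxb2, Hoxb3, Hoxd3 and Hoxd4) where 5.24% of all genes tested were, without detergent A replicate 2, with 5 where 5.01% of all genes were, without detergent A replicate 6, with 4 where 4.55% were, and without detergent B replicate 4, with 2 where 1.11% were. Over those fits with 1 library left out, the fold change of Hoxb2 stayed between -0.83 and -0.67, and it was -0.81 without PBS replicate 6.

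At an unadjusted p under 0.05, 14 of the 28 genes tested were lower with detergent A, where 8.71% of all genes were lower and 10% higher. Their adjusted p-values other than that of Hoxb2 were at least 0.0614, so the fold changes that follow are given as a description. In the Hoxb cluster the log2 fold change was -0.77 for Hoxb3, -0.62 for Hoxb4, a regulator of blood stem cells, -0.57 for Hoxb5, -0.61 for Hoxb6, -0.37 for Hoxb7 and -0.57 for Hoxb8, with edgeR adjusted p from 0.0745 for Hoxb3 to 0.186 for Hoxb5. In the Hoxd cluster it was -0.93 ± 0.23 (SE) for Hoxd3, with an edgeR adjusted p of 0.0614, and -0.66 ± 0.20 (SE) for Hoxd4, with 0.102. For both, all 6 detergent A libraries lay below the PBS mean. Without PBS replicate 6 they stood at -0.98 and -0.73, with edgeR adjusted p of 0.0274 and 0.0465. Of the Hoxc genes it was -0.78 for Hoxc9, -0.39 for Hoxc6 and -0.39 for Hoxc10, with edgeR adjusted p of 0.104, 0.113 and 0.238. Of the Hoxa genes it was -0.33 for Hoxa3 and -0.40 for Hoxa10, with edgeR adjusted p of 0.228 and 0.16.

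With detergent B, Hoxb2, Hoxd3 and Hoxd4 fell, which is 3 of 28 where 1.08% of all genes tested were called lower, 1.97% higher and 3.05% in either direction. Hoxd3 measured 1.11 CPM at the lowest, 2.74 at the median and 3.56 CPM at the highest in detergent B libraries, against 4.08, 5.18 and 7.62 CPM in PBS libraries. The groups did not overlap, and Hoxd3 was also below every PBS library in detergent A, at 1.64, 2.50 and 3.89 CPM. Its log2 fold change with detergent B was -0.97 ± 0.23 (SE), with an edgeR adjusted p of 0.0325. Hoxd4 measured 5.98, 12.4 and 13.7 CPM at the lowest, median and highest in detergent B libraries, against 15.5, 19.9 and 29.3 CPM in PBS libraries, again with no overlap. In detergent A libraries, where Hoxd4 spanned 8.47 to 19.8 CPM, the groups did overlap. The log2 fold change of Hoxd4 with detergent B was -0.79 ± 0.20 (SE), with an edgeR adjusted p of 0.0415. Hoxb2 measured 7.62, 9.69 and 12.0 CPM in detergent B, all 6 below the PBS mean, at -0.55 ± 0.14 (SE) with an edgeR adjusted p of 0.0441. Since detergent A and detergent B share the 6 PBS libraries, these comparisons are not independent of each other. Hoxd3 and Hoxd4 overlap each other in their exons, so their counts may not be separate measurements.

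The count of 3 rested on single libraries. It was 0 without any one of PBS replicates 1 to 5 or detergent B replicates 2 and 6, 1 (Hoxd3) without detergent A replicate 5 or detergent B replicate 4 or 5, and 7 without PBS replicate 6 (Hoxb3, Hoxb4 and Hoxb6 among them, beside the 3), where 11.1% of all genes tested were called, or without detergent B replicate 3, where 6.19% were. It was 6 without detergent A replicate 3 or detergent B replicate 1, 5 without detergent A replicate 2, and 4 without detergent A replicate 4 or 6. Shares over all genes are not given for the fits with 0, 1, 4, 5 or 6 members called, so those counts are a description. Over all genes, the fits with 1 library left out called 28 to 1888, against 514 with all 18 libraries. Without PBS replicate 6 the log2 fold changes with detergent B were -0.62 for Hoxb2, -1.03 for Hoxd3 and -0.85 for Hoxd4, with edgeR adjusted p of 0.01305, 0.01449 and 0.01765.

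**Figure D2:**
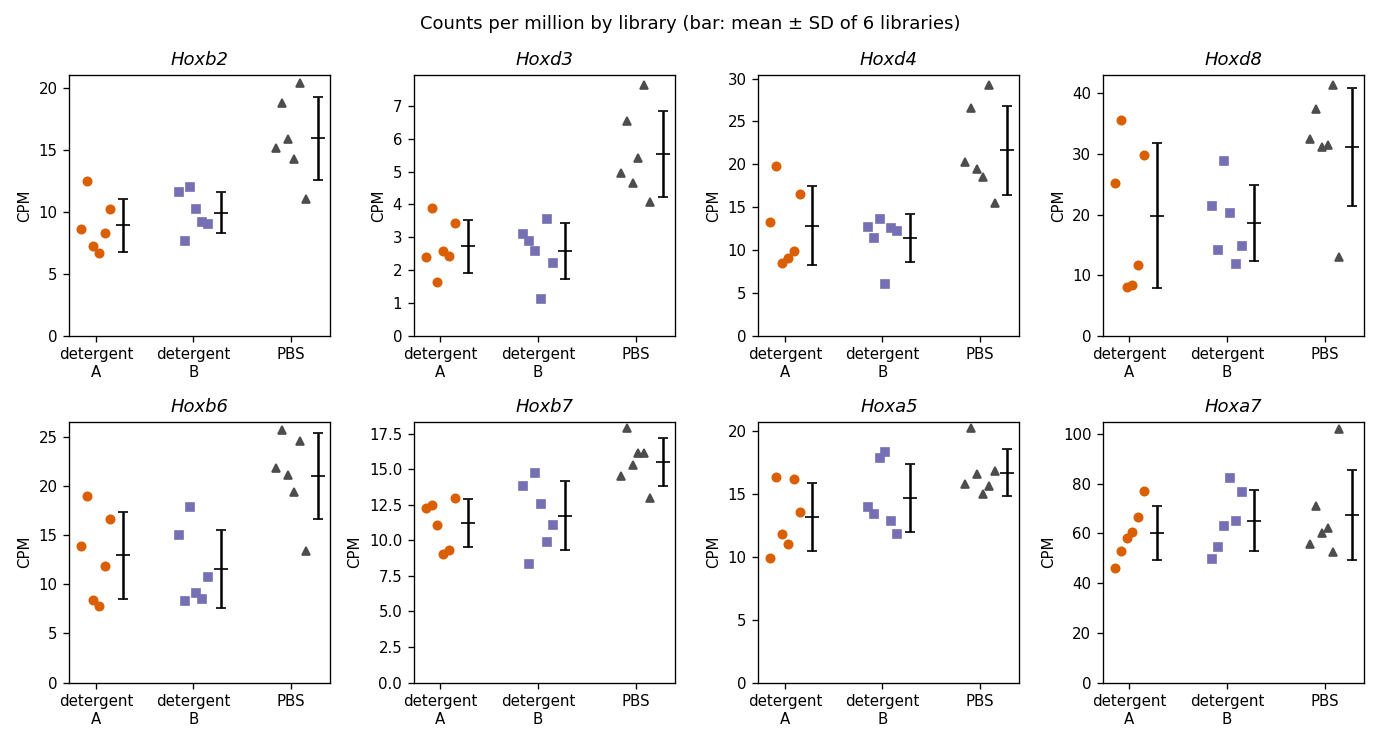
CPM (vertical axis, linear from 0) in every library for Hoxb2, Hoxd3, Hoxd4, Hoxd8, Hoxb6, Hoxb7, Hoxa5 and Hoxa7, with detergent A, detergent B and PBS from left to right and the mean ± SD of 6 libraries beside each group. Hoxd3 in both detergent groups and Hoxd4 in detergent B lie wholly below the PBS libraries, while Hoxa7 overlaps throughout.

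At an unadjusted p under 0.05, 12 genes were lower with detergent B, where 11.1% of all genes were lower and 12.3% higher. All 8 Hoxb genes tested were among the 12. Beside Hoxb2, the log2 fold change was -0.75 for Hoxb3, -0.73 for Hoxb6, -0.59 for Hoxb4, -0.58 for Hoxb5, -0.57 for Hoxb8, -0.44 for Hoxb9 and -0.27 for Hoxb7, with edgeR adjusted p from 0.0521 for Hoxb3 to 0.174 for Hoxb7. Hoxa3 stood at -0.44 with an edgeR adjusted p of 0.0863 and Hoxa6 at -0.57 with 0.171. Over all members, CPM did not overlap for 2 members in detergent A, Hoxb7 and Hoxd3, and for 3 in detergent B, Hoxa3, Hoxd3 and Hoxd4, all lower, where 1.41% and 2.66% of genes tested did so. No member lay wholly above PBS, where 0.261% of genes tested did with detergent A and 0.998% with detergent B.

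**Figure D3:**
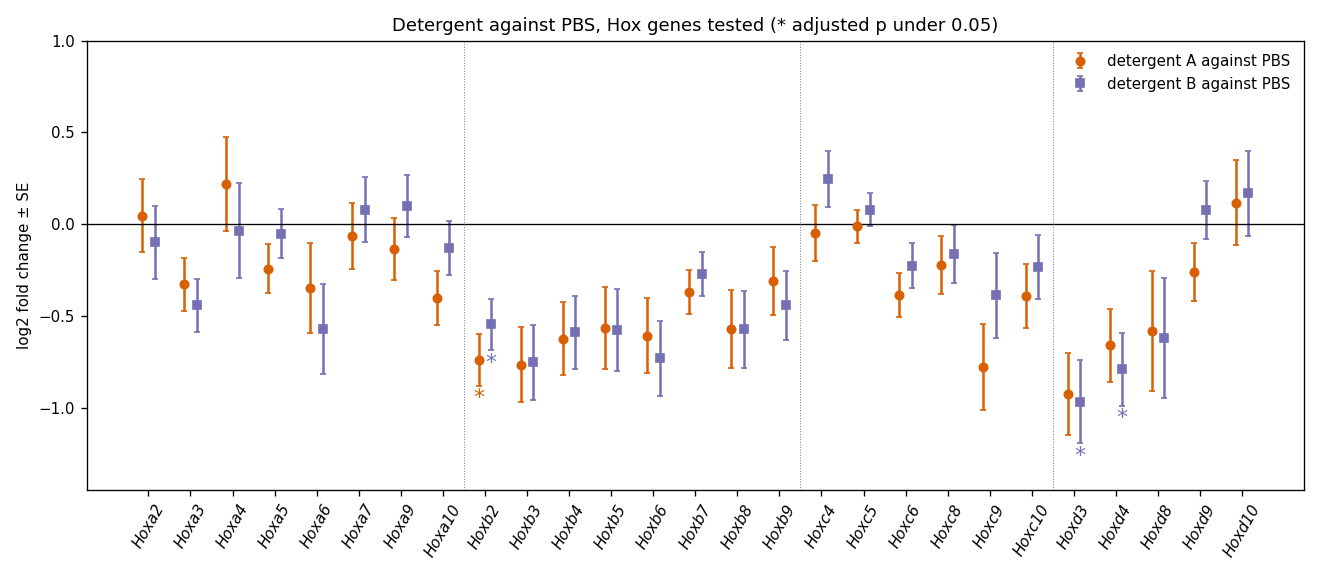
Log2 fold change ± SE (vertical axis) of detergent A and detergent B against PBS for the Hox genes tested and described here, grouped by cluster on the horizontal axis, with a star at an adjusted p under 0.05. All 8 Hoxb genes lie below 0 in both comparisons.

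The 8 Hoxb genes tested were below PBS in both detergents under each of the scalings tried, with median log2 fold changes of -0.59 in detergent A and -0.58 in detergent B. In single libraries, between 4 and 6 of 6 detergent A libraries and between 5 and 6 of 6 detergent B libraries lay below the PBS mean for each Hoxb gene. Medians for Hoxd were -0.58 and -0.62, for Hoxc -0.31 and -0.20, and for Hoxa -0.14 and -0.05, in detergent A and detergent B. Over all 28 genes the median was -0.36 in detergent A and -0.25 in detergent B, against -0.01 for all genes tested in both. Fold changes were negative for 24 of 28 genes in detergent A and 21 of 28 in detergent B, where 51.65% and 51.27% of all genes were, and scaling by total counts turned Hoxa2 in detergent A and Hoxa7, Hoxa9, Hoxc5 and Hoxd9 in detergent B to the negative side, as it moved the median of all genes to -0.11 and -0.14.

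Of the most abundant members, Hoxa7 spanned 46.2 to 77.0 CPM with a median of 59.2 in detergent A, and 49.9 to 82.1 with a median of 64.0 in detergent B, against 52.7 to 102 with a median of 61.3 CPM in PBS. Its log2 fold changes of -0.07 ± 0.18 with detergent A and 0.08 ± 0.18 with detergent B (SE) were smaller than their errors. Without PBS replicate 6, which had the highest Hoxa7 level of the control libraries, they were 0.12 and 0.27, with edgeR adjusted p of 0.647 and 0.228. Hoxa5 measured 9.92, 12.7 and 16.4 CPM at the lowest, median and highest in detergent A and 11.8, 13.7 and 18.3 in detergent B, against 14.97, 16.2 and 20.2 CPM in PBS, with edgeR adjusted p of 0.336 and 0.841 at -0.24 and -0.05.

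Of the 5 most abundant genes, Hoxd8 had the widest spread relative to its mean. It measured 7.99, 18.4 and 35.6 CPM in detergent A and 11.8, 17.5 and 28.8 CPM in detergent B, against 13.02, 32.1 and 41.4 CPM in PBS. Its log2 fold changes were -0.58 ± 0.33 and -0.62 ± 0.33 (SE), with edgeR adjusted p of 0.345 and 0.257. Without PBS replicate 6, which had the lowest Hoxd8 level of the control libraries, they were -0.73 and -0.77, with edgeR adjusted p of 0.165 and 0.114. Hoxb6 measured 7.83, 12.9 and 19.0 CPM in detergent A and 8.32, 9.89 and 17.9 CPM in detergent B, against 13.4, 21.5 and 25.7 CPM in PBS, so that the groups overlapped only through PBS replicate 6. Its edgeR adjusted p was 0.134 with detergent A and 0.0579 with detergent B, and 0.0537 and 0.0205 without that library, at -0.70 and -0.82. Hoxb7 measured 9.02, 11.7 and 12.97 CPM in detergent A and 8.38, 11.8 and 14.8 CPM in detergent B, against 13.02, 15.7 and 17.9 CPM in PBS, where detergent A libraries did not overlap with PBS, and its edgeR adjusted p was 0.119 and 0.174. Hoxc8 measured 10.7, 13.6 and 22.2 CPM in detergent A and 11.8, 15.4 and 19.8 CPM in detergent B, against 16.7, 18.7 and 22.8 CPM in PBS, with edgeR adjusted p of 0.458 and 0.552 at -0.22 and -0.16.

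Detergent B against detergent A was the direct test of a difference between the products, and 0 of 28 Hox genes were called, where 0% of all genes tested were called. The count was also 0 with DESeq2 and with limma voomWithQualityWeights. At an unadjusted p under 0.05 edgeR gave 1 gene, Hoxd9, which acts in the lumbar region and hind limb, at a log2 fold change of 0.34 ± 0.16 (SE), where 1.79% of all genes were higher and 1.48% lower, with an edgeR adjusted p of 0.989. CPM overlapped for every member, where 0.0119% of genes tested lay wholly lower and 0.00594% wholly higher in detergent B. Fold changes over the 28 genes ran from -0.26 for Hoxa4 to 0.39 for Hoxc9, with a median of 0.05.

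Hoxb genes were higher in libraries with more hair keratin RNA. A slope was fitted for every gene on the hair keratins score with group as a term, so that it compares libraries of the same group, and no Hox gene is part of the score. Of the 28 genes, 13 passed, where 25.3% of all genes tested did, 11 with a positive slope, where 13.4% of all genes tested had one, and 2 with a negative slope, where 11.9% did. The positive ones were all 8 Hoxb genes tested with Hoxc8, Hoxd4 and Hoxd8, and the negative ones were Hoxa7 and Hoxa9. Hoxa9 is best known as a regulator of blood progenitors.

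The steepest slope was that of Hoxd8, at 0.31 ± 0.04 log2 units per unit of score (SE) with an edgeR adjusted p of 6.4e-05. In the Hoxb cluster the slopes ran from 0.07 ± 0.03 for Hoxb7, with an edgeR adjusted p of 0.0448, to 0.19 ± 0.03 for Hoxb3, with 3.2e-05. The slope of Hoxa7 was -0.11 ± 0.04, with an edgeR adjusted p of 0.0251, and that of Hoxa9 was -0.10 ± 0.04, with 0.0487. Hoxd3, which fell with detergent B, had a slope of 0.05 ± 0.06 with an edgeR adjusted p of 0.532. The scores had a gap, with 8 libraries at -2.60 or below (3 of detergent A, 4 of detergent B and 1 of PBS) and 10 at -1.14 or above (3 of detergent A, 2 of detergent B and 5 of PBS). With the 2 libraries of most extreme score left out, 8 genes were called, and 8 also without PBS replicate 6, with Hoxd8, Hoxb3, Hoxb4, Hoxb6, Hoxb8 and Hoxb9 in both sets. The call of Hoxa9 was held only without detergent A replicate 5 or detergent B replicate 2, 4 or 5, and that of Hoxb7 only without detergent A replicate 2 or 3, detergent B replicate 4 or PBS replicate 1 or 4. The call of Hoxa7 was lost without detergent A replicate 2 or PBS replicate 6.

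**Figure D4:**
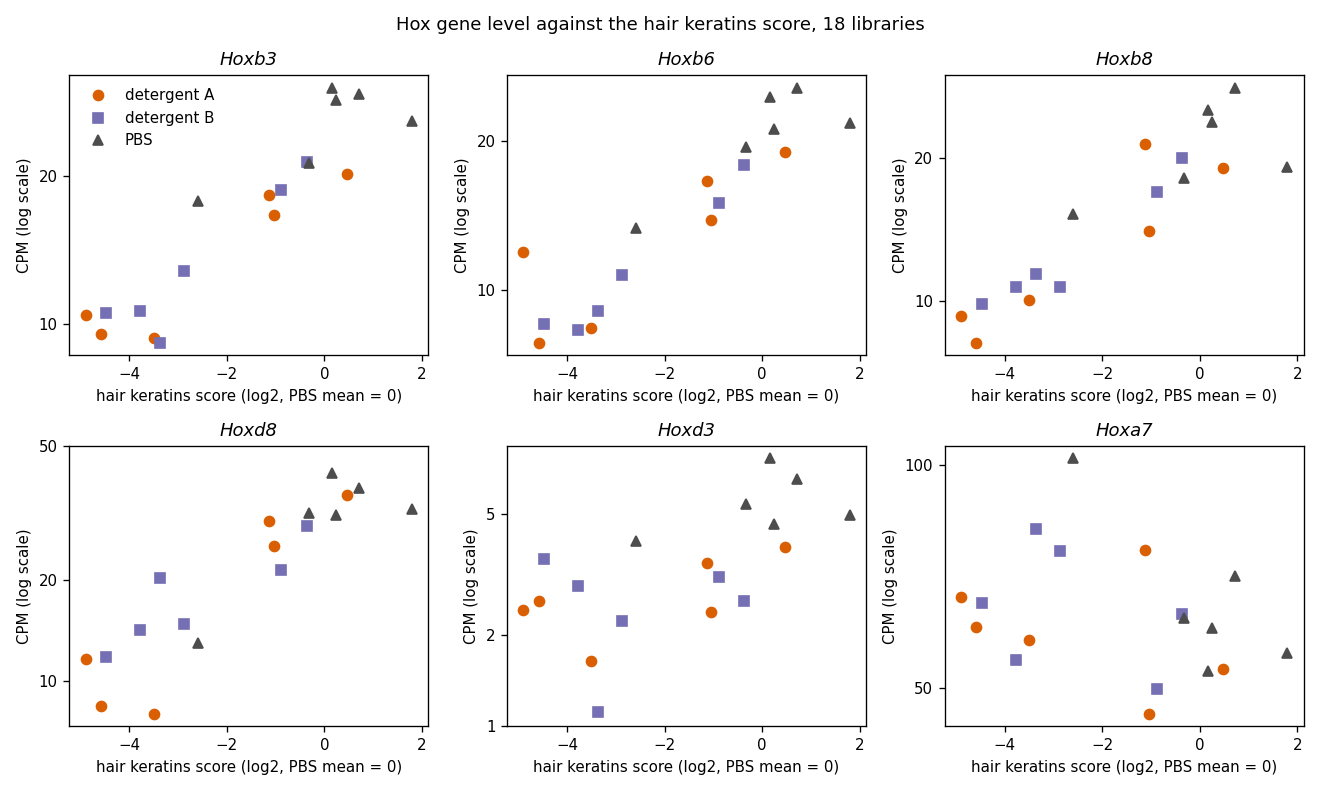
CPM (vertical axis, log scale) of 6 Hox genes against the hair keratins score (horizontal axis, log2, PBS mean at 0) in 18 libraries, with symbols for detergent A, detergent B and PBS. Hoxb3, Hoxb6, Hoxb8 and Hoxd8 climb with the score in both detergent groups. In PBS, replicate 6, with the lowest score, has the lowest level of each. The PBS library of highest score, replicate 1, lies below replicate 5 for each of them. Hoxd3 lies lower in both detergent groups than in PBS, and Hoxa7 declines with the score.

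**Figure D5:**
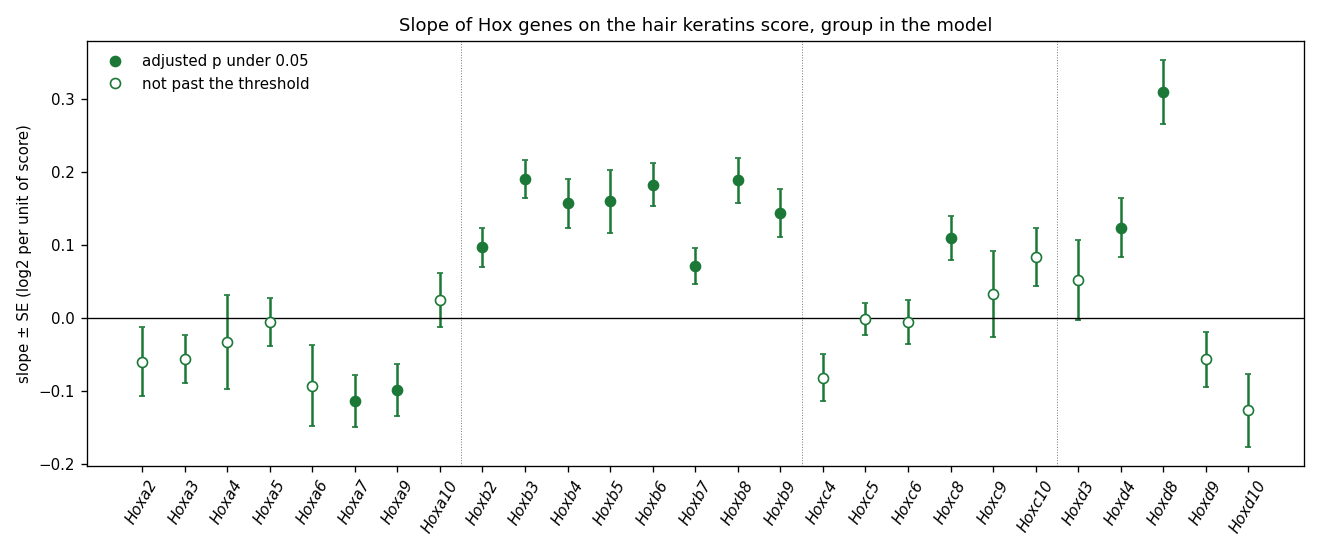
Slope ± SE on the hair keratins score (vertical axis, log2 per unit of score, group in the model) for the Hox genes tested and described here, with filled points at an adjusted p under 0.05. All 8 Hoxb genes have filled points above 0, and Hoxd8 has the highest slope, at 0.31.

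The hair keratins score averaged -2.45 ± 2.19 in detergent A, -2.62 ± 1.64 in detergent B and 0 ± 1.46 in PBS libraries (SD, n = 6 each). With the score as a covariate, 0 of 28 Hox genes and 0 of all genes tested were called in either comparison with PBS by edgeR, and 9 and 6 Hox genes were lower at an unadjusted p under 0.05, where 6.49% and 5.97% of all genes were lower. The Hoxb median was then -0.21 with either detergent, and Hoxb9 was above 0 with detergent A. Hoxb2 stood at -0.51 and -0.29, with edgeR adjusted p of 0.21 and 0.443 for detergent A and detergent B. Hoxd4 stood at -0.39 and -0.46, with 0.51 and 0.422. Hoxd3 stood at -0.80 and -0.83, with edgeR adjusted p of 0.329 and 0.271.

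Slopes on the fibroblast and muscle scores gave no calls among Hox genes. For the dermal fibroblast score, which averaged -0.32 ± 0.26 in detergent A, -0.05 ± 0.25 in detergent B and 0 ± 0.22 in PBS libraries, edgeR called 0 of 28 where 1.43% of all genes tested were called (1.38% positive and 0.0475% negative). At an unadjusted p under 0.05, 4 were positive (Hoxa10, Hoxb2, Hoxc10 and Hoxd8), where 8.02% of all genes were positive and 7.11% negative. All 12 fibroblast markers were measured and none was at 0, with sums of 3362 to 9485 CPM in detergent A, 4829 to 8641 in detergent B and 5847 to 10980 CPM in PBS libraries. With this score as a covariate, 0 Hox genes were called by edgeR for detergent A, with 10 lower at an unadjusted p under 0.05 where 4.28% of all genes were, and the same 3 for detergent B, where 3.25% of all genes were called. For the skeletal muscle score 0 were called by edgeR where 1.04% of all genes tested were (1.03% positive and 0.00594% negative). At an unadjusted p under 0.05, 1 was positive (Hoxd9) and 1 negative (Hoxb7), where 7.28% and 2.95% of all genes were.

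Promoters are shown for 6 genes that differ in these results, Hoxd3 and Hoxd4 as genes that fell, Hoxd8, Hoxb4 and Hoxb8 as genes with positive slopes on the hair keratins score, and Hoxa7 as a gene with a negative one. Each is the RefSeq sequence of 250 bases before to 50 after the start, on GRCm38.p6, 5′ to 3′ on the strand of the gene. Capitals mark matches on either strand to TGATNNAT, bound by Hox proteins with a Pbx partner, to AGGTCA, a half-site of retinoid and related receptors, and to CCAAT, the box bound by NF-Y. None of the printed matches overlapped another.
Hoxd3: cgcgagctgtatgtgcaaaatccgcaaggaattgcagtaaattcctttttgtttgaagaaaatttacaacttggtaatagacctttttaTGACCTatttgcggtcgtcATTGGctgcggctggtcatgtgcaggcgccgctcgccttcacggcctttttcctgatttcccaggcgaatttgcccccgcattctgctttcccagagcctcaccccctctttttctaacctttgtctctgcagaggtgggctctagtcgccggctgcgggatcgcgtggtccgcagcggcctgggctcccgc
Hoxd4: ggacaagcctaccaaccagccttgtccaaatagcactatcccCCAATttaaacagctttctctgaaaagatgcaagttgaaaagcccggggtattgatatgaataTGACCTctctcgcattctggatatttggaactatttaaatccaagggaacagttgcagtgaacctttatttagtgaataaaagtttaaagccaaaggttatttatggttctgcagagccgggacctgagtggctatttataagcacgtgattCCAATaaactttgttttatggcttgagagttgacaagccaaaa
Hoxd8: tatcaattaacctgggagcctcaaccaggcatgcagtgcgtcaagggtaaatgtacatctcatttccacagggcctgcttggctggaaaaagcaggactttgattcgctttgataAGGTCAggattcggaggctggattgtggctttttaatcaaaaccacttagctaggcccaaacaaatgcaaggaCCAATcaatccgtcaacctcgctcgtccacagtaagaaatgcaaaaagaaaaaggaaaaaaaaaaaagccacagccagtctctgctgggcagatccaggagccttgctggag
Hoxb4: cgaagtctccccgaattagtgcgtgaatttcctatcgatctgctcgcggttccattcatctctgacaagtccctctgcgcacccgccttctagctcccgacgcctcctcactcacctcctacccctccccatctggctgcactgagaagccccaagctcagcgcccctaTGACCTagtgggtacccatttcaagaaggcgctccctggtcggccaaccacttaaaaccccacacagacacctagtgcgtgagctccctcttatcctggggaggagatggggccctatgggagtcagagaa
Hoxb8: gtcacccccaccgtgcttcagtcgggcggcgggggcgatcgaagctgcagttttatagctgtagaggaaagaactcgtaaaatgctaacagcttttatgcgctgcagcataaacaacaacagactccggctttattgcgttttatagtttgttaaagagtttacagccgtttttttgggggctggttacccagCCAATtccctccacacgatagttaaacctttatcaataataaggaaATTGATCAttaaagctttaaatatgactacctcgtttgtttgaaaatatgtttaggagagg
Hoxa7: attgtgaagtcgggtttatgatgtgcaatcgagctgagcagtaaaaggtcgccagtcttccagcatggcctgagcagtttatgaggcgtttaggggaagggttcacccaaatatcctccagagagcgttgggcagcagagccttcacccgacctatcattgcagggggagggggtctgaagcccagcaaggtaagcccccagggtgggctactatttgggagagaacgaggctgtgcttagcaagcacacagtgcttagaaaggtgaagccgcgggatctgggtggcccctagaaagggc
They lie at chr2:74711743-74712042, chr2:74721728-74722027 and chr2:74704365-74704664 for Hoxd3, Hoxd4 and Hoxd8, at chr11:96318017-96318316 and chr11:96281655-96281954 for Hoxb4 and Hoxb8, all on the plus strand, and at chr6:52218524-52218823 on the minus strand for Hoxa7. The GENCODE models of Hoxd3 and Hoxd4 both begin inside the Hoxd3 window, at 74711927 and 74711929. That of Hoxa7 begins at 52221854 on the minus strand, so the Hoxa7 window lies inside the gene model used for its level. The table held promoters of 22 of the 38 members. CCAAT was found in 63.6% of these and in 37.4% of all 32851 promoters, AGGTCA in 31.8% and 16.3%, TGATNNAT in 13.6% and 8.85%, TAATTA, a homeodomain core, in 4.55% and 5.29%, and TATAAA in 13.6% of each. The median number of CG dinucleotides was 13.5 in Hox promoters and 7 in all promoters, and was 4 for Hoxd4, 6 for Hoxd8 and 20 for Hoxd3. A match to such letters is a description of the window and does not show a bound site.

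Non-coding genes of the clusters were tested in the same fit. Hoxb5os, which overlaps Hoxb5, stood at a log2 fold change of -1.72 ± 0.50 with detergent A and -1.82 ± 0.51 with detergent B (SE), with edgeR adjusted p of 0.0971 and 0.0561. Its slope on the hair keratins score was 0.51 ± 0.08, with an edgeR adjusted p of 0.000165. Hoxb3os stood at -0.44 and -0.57, with edgeR adjusted p of 0.179 and 0.0681, and had a positive slope of 0.12 ± 0.03 with 0.00761. Hotairm1, a non-coding gene of the Hoxa cluster, had a negative slope of -0.16 ± 0.04, with an edgeR adjusted p of 0.0031, and fold changes of 0.00 and 0.19 with edgeR adjusted p of 0.997 and 0.6.

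Genes of partners and regulators of Hox proteins were tested in the same fit. For every list that follows, the share of all genes lower and higher at an unadjusted p under 0.05 was 8.71% and 10% with detergent A and 11.1% and 12.3% with detergent B. At the adjusted threshold edgeR called 0.19% of all genes tested with detergent A and 3.05% with detergent B, in either direction. A positive slope on the hair keratins score was called for 13.4% of all genes and a negative one for 11.9%. DESeq2 called 4.97% of the genes it gave an adjusted p with detergent A and 7.71% with detergent B, and limma voomWithQualityWeights called 23.3% and 30.1% of all genes. Of 11 cofactor genes of the Pbx, Meis, Pknox and Tgif families, which bind DNA together with Hox proteins, 0 were called with either detergent by edgeR, with 2 lower at an unadjusted p under 0.05 in each, Pbx2 and Pknox1. DESeq2 called 0 with detergent A and Pknox1 with detergent B, and limma voomWithQualityWeights called 3 and 5. The most abundant per kilobase were Pbx2 at 11.9 and Tgif1 at 10.3 CPM per kilobase. Pbx2 measured 39.8 ± 9.74 in detergent A, 38.9 ± 4.13 in detergent B and 51.6 ± 4.49 CPM in PBS libraries (SD, n = 6 each). On the hair keratins score 4 of the 11 had positive slopes past the threshold where 13.4% of all genes did, Tgif2 the steepest at 0.45 ± 0.05, and 0 had negative ones, where 11.9% did.

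Polycomb genes, which keep Hox genes silent outside their domain, gave 0 calls of 27 with either detergent by edgeR. Unadjusted p-values under 0.05 were found for 7 lower and 3 higher genes with detergent A, where 8.71% and 10% of all genes were, and for 6 lower and 1 higher with detergent B, where 11.1% and 12.3% were. Cbx8 stood at a log2 fold change of -0.46 with an edgeR adjusted p of 0.0577 in detergent A and at -0.36 with 0.0655 in detergent B, and Pcgf2 at -0.24 with 0.109 and at -0.27 with 0.0537. DESeq2 called 3 and 2 polycomb genes lower and limma voomWithQualityWeights called 9 and 7 in either direction. The highest per kilobase were Rbbp7 at 47.1, Rbbp4 at 16.6 and Phc2 at 12.5 CPM per kilobase. Slopes on the hair keratins score were positive for 6 of 27, among them Ezh2 and Suz12 of the methylating complex, where 13.4% of all genes had one, and negative for 2, where 11.9% did.

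Trithorax-type genes keep Hox genes active, and of 11 measured 1 fell with detergent B. By edgeR, 1.08% of all genes tested were called lower in that comparison and 3.05% in either direction. The gene was Men1, which encodes menin, at a log2 fold change of -0.36 ± 0.10 (SE) with an edgeR adjusted p of 0.0468. Men1 measured 38.1 ± 7.25 in detergent A, 38.3 ± 4.3 in detergent B and 54.04 ± 7.69 CPM in PBS libraries (SD, n = 6 each). With detergent A 0 were called by edgeR, with Men1 at -0.41 ± 0.10 (SE) and an adjusted p of 0.0586 the only one at an unadjusted p under 0.05. DESeq2 called Men1 alone with either detergent, and limma voomWithQualityWeights called 2 and 5. Men1 too had a positive slope on the hair keratins score, at 0.07 ± 0.02 with an edgeR adjusted p of 0.00388, as did 4 more. Dpy30, Wdr5 and Kmt2b were the highest of the list, at 27.8, 17 and 12.9 CPM per kilobase.

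Other transcription factor genes that mark position were also read. Of 28 listed, 17 passed the filter on low counts and 0 were called by edgeR with either detergent, with 1 lower and 1 higher at an unadjusted p under 0.05 for detergent A and 1 lower and 2 higher for detergent B. DESeq2 called 0 in both, and limma voomWithQualityWeights called 4 and 7. Tbx15, Irx3 and Irx5 were highest, at 9.35, 8.89 and 6.48 CPM per kilobase. Tbx5, a forelimb gene, Barx1, a stomach and jaw gene, and the hindgut genes Cdx1, Cdx2 and Cdx4 had no read in any library. Positive slopes on the hair keratins score past the threshold were those of Lmx1b at 0.52 ± 0.06, Alx4 at 0.48 ± 0.06 and Tbx18 at 0.26 ± 0.05, and negative ones were those of Irx3, Irx5, Dlx5 and Tbx3.

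Retinoic acid sets Hox activity in embryos, and of 14 genes of its signalling listed, 13 were tested and 0 were called by edgeR with either detergent. Unadjusted, 2 were lower and 1 higher at p under 0.05 in each comparison. Rara, a retinoic acid receptor, stood at a log2 fold change of -0.64 with detergent A and -0.63 with detergent B, with edgeR adjusted p of 0.141 and 0.104. Crabp2, which carries retinoic acid in the cell, stood at 0.67 and 0.52, with edgeR adjusted p of 0.124 and 0.159. DESeq2 called Crabp2 higher with detergent A and Aldh1a3 lower with detergent B, and limma voomWithQualityWeights called 2 and 3. Crabp2, Rarg and Rxra were highest, at 82.7, 59.5 and 49.1 CPM per kilobase. Rara and Rarb had positive slopes on the hair keratins score, at 0.20 ± 0.03 and 0.30 ± 0.05, with edgeR adjusted p of 0.000124 and 0.000117.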

How the data were processed

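The deposited files hold whole-number counts per gene, unnormalized, made by the authors with STAR and featureCounts on GRCm38.p5, per the submitters' processing notes. Not given in the sources used here are versions, annotation release, strand setting and the treatment of shared reads. Per the labels' protocols, skin was kept in RNAlater, lysed in Qiazol and its RNA purified on columns. The 41605 gene IDs were matched to GENCODE M21, and 86 had no match. The Hox genes and all gene lists were chosen with earlier results of these data known. Some genes, counted among the members and lists, and some sequences are not reported here, and 1 further Hoxc gene is not counted. Each library carries its group in the labels.

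The test was that of edgeR 4.0.16 under R 4.3.3 (robust quasi-likelihood fit, TMM scaling, filterByExpr by group, 18 libraries, 15 residual degrees of freedom). P-values were adjusted by Benjamini-Hochberg over all 16836 genes tested, at a threshold of 0.05, and SE is the fold change divided by the root of F. Slopes used the same model with a score added, the mean log2 CPM of the marker list with a prior count of 2. Levels per kilobase divide CPM by merged exon length. The scripts were tested on simulated data. Alternatives were DESeq2 1.42.0, limma 3.58.1 (voomWithQualityWeights), other scalings, no filter, a GC offset in 20 bins, a replicate block, covariates, the 12 libraries compared alone, and leaving out each library. Floors cover counting error only, while SD and SE also hold the spread between libraries. Described in full were members past the threshold in a comparison, the 5 highest per kilobase and the highest of each cluster, and members reported here with an unadjusted p under 0.05 were named. Of other lists, members past the threshold and those reported of the 3 highest per kilobase were named, with those at 0 among positional genes, and the further genes named (Cbx8, Pcgf2, Rara, Crabp2, Pbx2, Pknox1 and Aldh1a3, and the non-coding genes) were chosen after their values were seen.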

Additional observations from a re-analysis of the deposited data

Results flagged for a closer look

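In 8 of 84 groups of 6 libraries, the highest or lowest library lay apart from the others by more than Dixon's critical value, where chance flags about 1 in 20. PBS replicate 6 accounted for 5 of them. Its Hoxa7 level was 102 CPM, against 52.7 to 70.9 CPM in the other PBS libraries, and its Hoxa9 level 29.1 CPM, against 20.4 to 22.6. Its Hoxa2 level was 5.74 CPM, against 2.97 to 3.76, and its Hoxc4 level 11.4 CPM, against 6.91 to 8.17. Its Hoxd8 level was 13.02 CPM, against 31.2 to 41.4 CPM in the others. Its hair keratins score was the lowest of the PBS libraries, at -2.60, and the part of this in the levels was not tested.

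The other libraries were flagged for 1 gene each. Hoxb9 was 22.4 CPM in detergent B replicate 3, against 9.63 to 13.2 in the other detergent B libraries. Hoxd4 was 5.98 CPM in detergent B replicate 4, against 11.4 to 13.7. Hoxa5 was 20.2 CPM in PBS replicate 2, against 14.97 to 16.8.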

How the results depend on the processing

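No fold change of a Hox gene past the threshold changed sign under any alternative. The count of Hox genes called, 1 with detergent A and 3 with detergent B, was 2 and 6 with scaling by total counts, 8 and 8 with DESeq2 and 16 and 14 with limma voomWithQualityWeights. Over all genes, the same settings called 1.31% and 5.71%, 4.97% and 7.71%, and 23.3% and 30.1%, against 0.19% and 3.05% as reported. For detergent A it was 0 with the hair keratins covariate, the fibroblast covariate, the GC offset, the 12 libraries compared alone, the replicate block, and the GC offset with the block. For detergent B it was 0 with the hair keratins covariate, 1 with no filter, 1 with the GC offset, 1 with the GC offset and the block, 2 with the replicate block and 5 with the 12 libraries compared. Leaving out 1 library gave 0 to 5 with detergent A and 0 to 7 with detergent B, and 0 throughout for detergent B against detergent A. Over all genes those fits called 0 to 888, 28 to 1888 and 0. Slopes on the hair keratins score gave 8 to 14 calls on leaving out 1 library, 8 without the 2 farthest libraries and 10 with the replicate block. Shares over all genes are not given for these slope fits, nor for the filter, GC, block and 12-library settings. Those counts are therefore a description. Fibroblast slopes gave 0 to 1 and muscle slopes 0. The Hoxd sum was 24.6 CPM per kilobase on unshared length. Causes were not tested. Whether replicate numbers pair the libraries is not known, and correlations between libraries cannot settle it. Of 18 pairings over the 3 comparisons, 8 correlated above 0.1, and in 4 of 18 the library matched its own number best. Among these were replicates 1, 4 and 5 of detergent B against detergent A, at r of 0.434, 0.223 and 0.546. Low counts limit the genes of groups 11 to 13.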
